A study of Mus musculus with 2 samples.

Results

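The ectodysplasin pathway was examined in the incisor tooth germ of *Sox21* KO and wild-type mice through 7 genes, namely the ligand gene *Eda*, the receptor genes *Edar*, *Eda2r* and *Tnfrsf19*, the adaptor gene *Edaradd*, the signal transducer gene *Traf6* and the inhibitor gene *Nfkbia*. The genes were taken by the names that the array's own annotation gives, which returned 12 of the 55681 probes other than controls and 7 of the 21244 genes that have a reference symbol and a probe. *Eda*, *Tnfrsf19*, *Traf6* and *Nfkbia* gave a signal well above background on both arrays, at 6 probes in all. *Edar*, *Edaradd* and *Eda2r* were well above background on neither array. Of the 6 measured probes, 5 had a higher signal in *Sox21* KO and 1, a *Traf6* probe, had a lower one. Across all measured probes the median log2 ratio (*Sox21* KO minus wild-type) was -0.0006. Counted by gene at its brightest probe, 3 of the 4 measured members were higher in *Sox21* KO. By comparison, 52.4% of all measured genes were higher by any amount, or 69.3% with the signals scaled by the median of each array. None of the 6 probes was 1.5-fold apart between the genotypes, and 6.9% of all measured probes were.

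RNA of wild-type and *Sox21* KO mouse incisors was labeled with the dye Cy3 and hybridized to Agilent SurePrint G3 Mouse GE arrays, with 1 array for each genotype. The wild-type mice were C57BL/6J, and the *Sox21* KO mice, in which the gene of the transcription factor Sox21 is disrupted, were received as a gift and kept on a soft diet. Their genetic background and the number of mice behind each RNA sample are not given in the sources used here. The sample labels give the age as postnatal day 0, whereas the text of the study speaks of tooth germs from the day after, and the germs held both epithelium and mesenchyme. The design text also speaks of isolated ameloblasts, while the labels of both samples say incisor. Because whole tissue was measured, fewer cells of a type and less RNA per cell cannot be told apart. With 1 array per genotype no test was possible, no difference has a replicate check, and genotype, animal, dissection and array cannot be told apart.

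Ectodysplasin, the product of *Eda*, is a ligand of the tumor necrosis factor (TNF) family that is released from the cell surface by the protease furin. It binds the receptor Edar or, as another splice form, Eda2r. Edar passes the signal through its death domain to the adaptor Edaradd, which engages TRAF proteins, among them Traf6, and the kinase complexes that target the inhibitor IκBα, the product of *Nfkbia*. Breakdown of IκBα frees the transcription factor NF-κB. Loss of the ligand, of Edar or of Edaradd causes hypohidrotic ectodermal dysplasia in humans and its counterparts in mice, in which teeth, hair and sweat glands are missing or misshapen. The pathway thus serves the tooth and the hair follicle, the organs whose epithelial fates the study set against each other.

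The processed signal of a spot, from which the authors' scanner software had removed background, was divided by the 75th percentile of its array, 268 for wild-type and 276 for *Sox21* KO, and the result is called the normalized signal. The log2 ratio is *Sox21* KO minus wild-type, and its error is that of the scanner software for the 2 spots, a technical error that holds no spread between animals. A probe was counted as measured where the software marked it as well above background on each of the arrays. This was so for 25956 probes and 13805 genes, and the median log2 ratio of these genes was 0.01. Probes spotted repeatedly, 274 in number, had a median SD of the log2 ratio of 0.09 between spots. *Sox21* itself had processed signals of 1362 in wild-type and 659 in *Sox21* KO at its brighter probe, a log2 ratio of -1.09 (error 0.20), and of 286 and 103 at the other, a log2 ratio of -1.51 (error 0.22). Both probes were thus still well above background on the KO array. The sources used here do not give where these probes lie relative to the deleted part. Of the marker lists, the 7 epithelial genes were all measured, with a median log2 ratio of 0.22 and a summed normalized signal of 567 in wild-type and 664 in *Sox21* KO. The 6 ameloblast genes, all measured, had a median of -0.64 and sums of 3126 and 2811. The 6 mesenchymal genes had a median of 0.16 with sums of 728 and 759, and the 4 odontoblast genes a median of 0.42 with sums of 119 and 122. Of other tissues, the log2 ratios of skeletal muscle genes had a median of -0.59, with sums of 57.9 and 40.3 (5 of 6 measured) and cornified skin genes had a median log2 ratio of 1.15 (3 of 5). Hair follicle genes had a median log2 ratio of 0.11 and sums of 24.2 and 24.2 (5 of 7 measured, 3 higher and 2 lower). Of these, *Krt32* and *Foxn1* were over 2-fold higher in *Sox21* KO, at low normalized signals (0.113 and 0.110 in wild-type). The brighter *Krt27* was lower, at 5.81 in wild-type and 3.82 in *Sox21* KO, a log2 ratio of -0.60. *Krt71*, seen on the wild-type array alone, was at least 2.34-fold lower. The 4 measured leukocyte genes had a median of 0.19 with 3 higher, although their sums were 94.2 and 88.3. Immediate early genes had a median of 0.38 and sums of 28.6 and 31.1 (6 of 7 measured, 5 higher and 1 lower). The part of these differences in the values of the ectodysplasin pathway was not tested.

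Each Agilent probe is a 60-base oligonucleotide, so a value belongs to 1 short stretch of a transcript and not to the gene as a whole. The stretches that the results turn on are shown 5′ to 3′ as the array's annotation gives them, with the first 30 bases for all but *Nfkbia*, whose probe is shown whole. They are the measured *Eda* probe, both *Edaradd* probes, the *Traf6* pair that differed in direction and the *Nfkbia* probe.
*Eda* probe 1: gggatgtaagtttgtgtaaattaatggttt
*Edaradd* probe 1: gatcccaaaatatcaatgtctttggacatg
*Edaradd* probe 2: taaggcagttaagcagatctcatttggttt
*Traf6* probe 1: ttcccctgtccggggaaggaaatcgcctgc
*Traf6* probe 2: ttaactatcgaggtgattcttacttaagac
*Nfkbia* probe: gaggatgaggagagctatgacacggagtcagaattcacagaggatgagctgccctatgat
The coordinates given for the probes are those of the files, in build mm9. The exon or UTR in which each probe lies was not analyzed here.

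*Eda* gave a clear signal at 1 of its 2 probes, and that signal was higher in *Sox21* KO. Probe 1 (chrX:97596039-97596098, plus strand) had a processed signal of 376 ± 38.1 (scanner error) in wild-type and 516 ± 51.9 in *Sox21* KO. The normalized signals were 1.40 and 1.87, so the log2 ratio was 0.42 with an error of 0.21, a 1.33-fold difference. This was the largest ratio in the direction of *Sox21* KO among the measured pathway probes. A ratio of this size or larger, in either direction, was found at 14.7% of all measured probes. Probe 2 lies 5671 bases away (chrX:97590368-97590427, plus strand) and was designed against another transcript variant of the ligand. Its processed signals were 6.16 ± 6.05 and 14.8 ± 5.60. Neither was well above background, and no ratio was taken. The probe passed a weaker pixel test of the software against local background on both arrays.

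**Figure D1:**
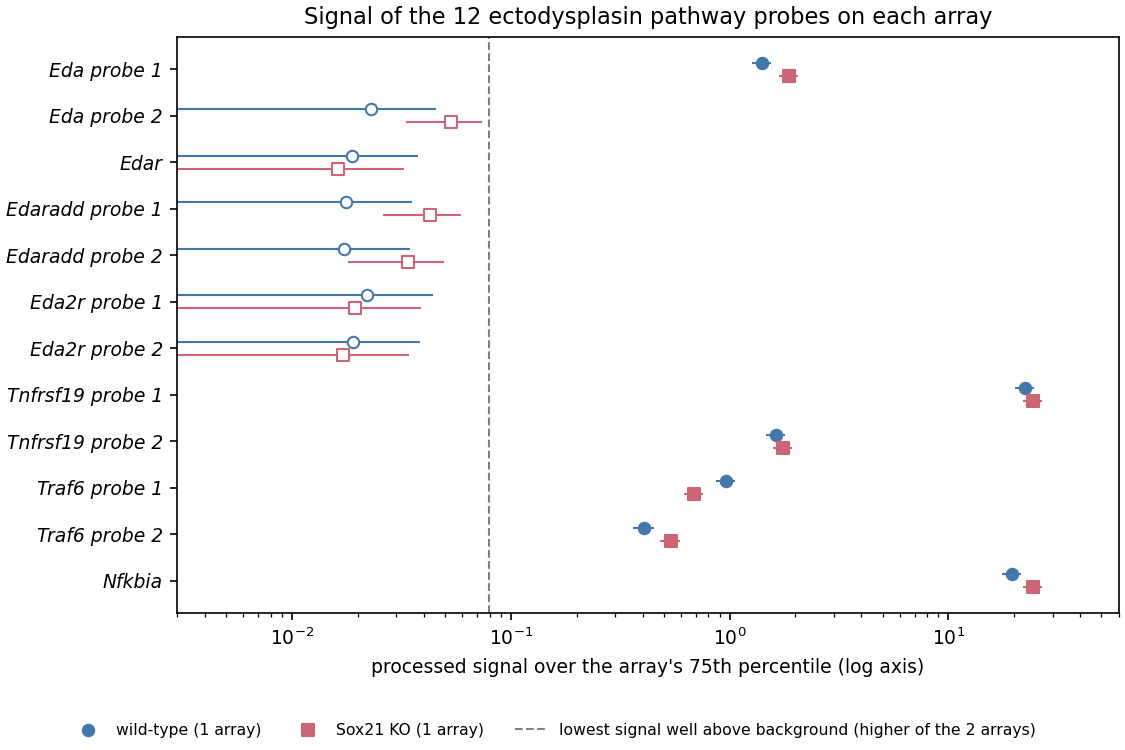
Processed signal over the 75th percentile of the array (log axis) of the 12 ectodysplasin pathway probes, with wild-type as circles and *Sox21* KO as squares, 1 array each; bars are the scanner error and are cut off at the left edge where they reach the axis limit. Filled symbols are well above background: 6 probes lie to the right of the dashed line on both arrays, and the probes of *Edar*, *Edaradd* and *Eda2r* and *Eda* probe 2 lie to the left of it.

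The receptors that bind ectodysplasin were not well above background in these tooth germs. The single *Edar* probe (chr10:58064202-58064261, minus strand) had processed signals of 5.04 in wild-type and 4.47 in *Sox21* KO, both of which the software had replaced with a floor value. Before background removal the spot read 40.3 and 31.7, and of the 308 negative-control spots 54 read as high or higher in wild-type and 182 in *Sox21* KO. *Eda2r*, the receptor of the other splice form, also carried floor values at both of its probes, but the first of them read higher among the negative controls than the second. Probe 1 (chrX:94534281-94534340, minus strand) read 47.2 and 42.8 before background removal, with 12 and 7 negative controls as high or higher. Probe 2 (chrX:94531320-94531379, minus strand) read 40.5 and 29.9, with 51 and 220. All 3 receptor probes thus lay within the range of the negative controls on both arrays. Neither receptor can be ranked between the genotypes, and a signal below background sets only a bound on the transcript that these probes match. The wild-type array needed a processed signal of 21.3 and the KO array one of 19.5 before any probe was marked as well above background. Of the 55679 probes that remained after outlier spots had been left out, 27282 (49.0%) were measured on neither array.

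*Tnfrsf19*, also known as Troy, is a receptor related to Edar in sequence that is expressed in developing skin and hair follicles. It was measured at both of its probes, which lie 6794 bases apart, and both gave a small ratio of the same sign. Probe 1 (chr14:61582873-61582932, minus strand) had processed signals of 6004 ± 600 in wild-type and 6735 ± 674 in *Sox21* KO, or 22.4 and 24.4 after normalization, a log2 ratio of 0.12 (error 0.20). Probe 2 (chr14:61589667-61589726, minus strand) had 437 ± 44.1 and 484 ± 48.7, or 1.63 and 1.76, a log2 ratio of 0.11 (error 0.21). The ratios of the pair differed by 0.02, with an error of 0.29. Neither was larger than its own scanner error, and 58.4% and 64.2% of all measured probes had a ratio at least as large.

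The adaptor gene *Edaradd*, which links Edar to the TRAF proteins, was well above background on neither array at either of its probes, which lie 4254 bases apart. On the wild-type array both probes carried a floor value, with processed signals of 4.73 at probe 1 (chr13:12570074-12570133, minus strand) and 4.64 at probe 2 (chr13:12565820-12565879, minus strand). On the KO array the software gave measured values of 11.8 ± 4.60 and 9.31 ± 4.31, and both probes passed the weaker pixel test there and not in wild-type. Before background removal probe 1 read 41.3 and 49.6, and probe 2 read 33.0 and 45.7. In wild-type 45 and 237 of the 308 negative controls read as high or higher than probes 1 and 2, whereas on the KO array 2 and 3 did. The median raw reading of the negative controls was 35.8 in wild-type and 32.6 in *Sox21* KO. Passing the weaker test on the KO array alone was common among dim probes, as 11.5% of the 27282 probes measured on neither array did so. Both probes of a gene did so for 15 of 904 genes with 2 such probes (1.66%). No fold is given for *Edaradd*, since both groups lie below the level marked as measured.

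**Figure D2:**
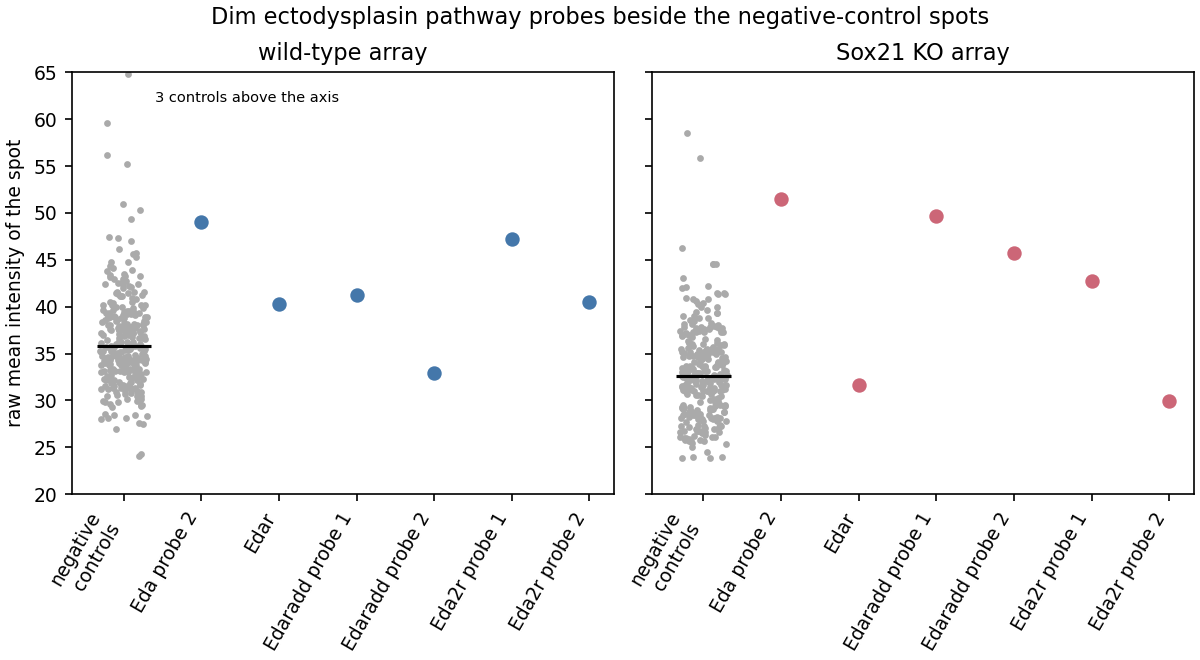
Raw mean intensity (linear axis) of the 6 ectodysplasin pathway probes that were well above background on neither array, beside the 308 negative-control spots of the same array (grey points, with the median as a bar); each colored point is 1 spot. *Edar* and the second *Eda2r* probe lie inside the cloud of negative controls on both arrays. *Eda* probe 2 (49.0 in wild-type, 51.5 in *Sox21* KO) and the first *Eda2r* probe (47.2 and 42.8) lie near its upper end on both. The *Edaradd* probes lie there on the KO array, at 49.6 and 45.7.

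*Traf6*, which encodes the ubiquitin ligase that carries the signal to the kinases upstream of NF-κB, was measured at 2 probes that differed in direction. Probe 1 (chr2:101519206-101519265, plus strand), designed against a cDNA from tongue, had processed signals of 258 ± 26.3 in wild-type and 190 ± 19.5 in *Sox21* KO. Its normalized signals were 0.964 and 0.689, a log2 ratio of -0.48 (error 0.21), or 1.40-fold lower in *Sox21* KO. Probe 2 (chr2:101540660-101540719, plus strand), designed against the RefSeq transcript, had 109 ± 12.2 and 148 ± 15.6. Its normalized signals were 0.407 and 0.538, a log2 ratio of 0.40 (error 0.22), or 1.32-fold higher. The stretches that the probes match lie 21454 bases apart on the chromosome. The ratios differed by 0.89, with an error of 0.30. Among 2969 genes with 2 measured probes the median difference between the pair was 0.16, and 50 genes (1.68%) had a pair at least as far apart as that of *Traf6*. Opposite signs alone were frequent, at 35.4% of these genes. No single direction can be stated for *Traf6*.

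*Nfkbia* encodes IκBα, which holds NF-κB in the cytoplasm and is itself a well-known transcriptional target of NF-κB. Its probe (within chr12:56590945-56591440, minus strand) spans 496 bases of the genome with its 60 bases, so that it crosses an exon junction. The processed signal was 5225 ± 523 in wild-type and 6685 ± 669 in *Sox21* KO. The normalized signals were 19.5 and 24.3, a log2 ratio of 0.31 (error 0.20), or 1.24-fold higher, and 23.6% of all measured probes had a ratio of this size or larger. The difference was 1.54 times its scanner error.

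As a group, the measured probes of the pathway had ratios between -0.48 and 0.42 on the log2 scale. The scanner errors ran from 0.20 to 0.22, and 2 ratios were within 1 error of 0, 2 were between 1 and 2 errors and 2 were over 2 errors. The last were those of *Eda* probe 1, at 2.02 errors and thus close to the limit, and *Traf6* probe 1, at -2.32. With the brightest probe per gene, the median log2 ratio of the 4 measured members was 0.22, against 0.01 for all measured genes. With the RefSeq probe of *Traf6* in place of the brighter one it was 0.36. None of the probes was 2-fold apart, a distance reached by 1.43% of all measured probes, and none was 1.5-fold apart, a distance reached by 6.9%. With background shares this low, a count of 0 among 6 probes does not set the pathway apart from other probes. All 6 kept their direction under the 5 alternatives in scaling and background correction, the ones that could move a measured probe, and *Eda* probe 1 ranged from 0.37 to 0.51 and *Nfkbia* from 0.29 to 0.41.

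**Figure D3:**
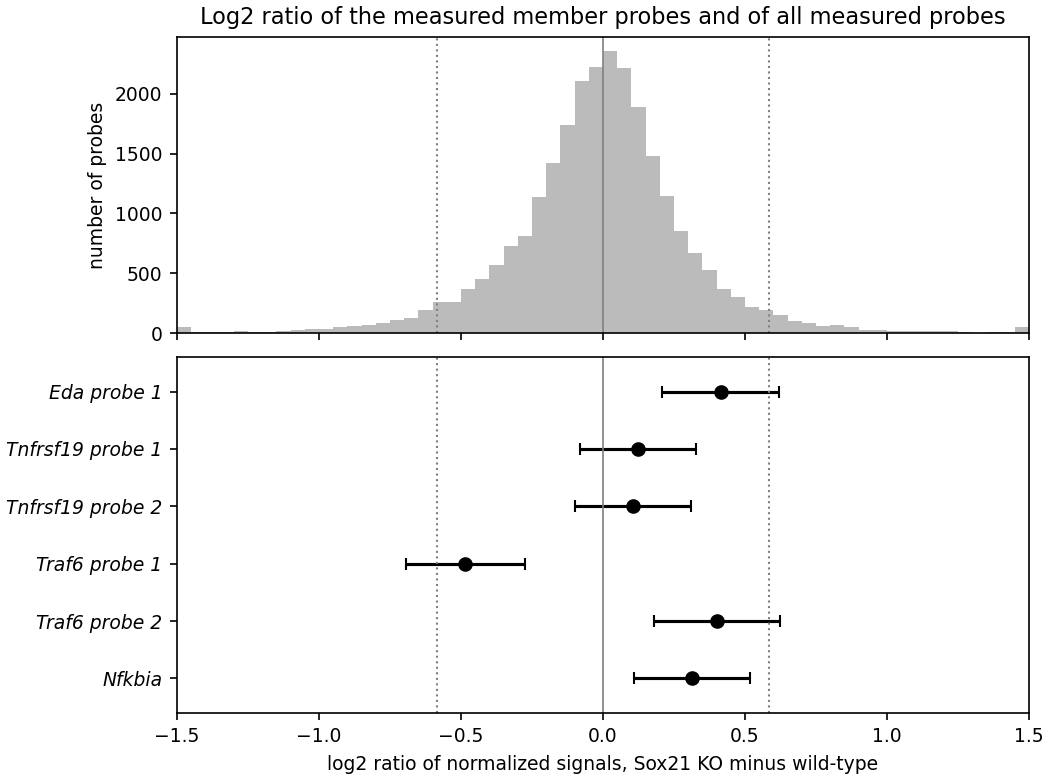
Top, number of measured probes of the whole array by log2 ratio (*Sox21* KO minus wild-type), with probes beyond the axis gathered in the end bins; bottom, log2 ratio of the 6 measured ectodysplasin pathway probes with the scanner error as bars, 1 array per genotype. All 6 points, from -0.48 at *Traf6* probe 1 to 0.42 at *Eda* probe 1, lie between the dotted lines that mark a 1.5-fold difference.

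The genes around the pathway were followed through 7 lists of 80 genes, of which 69 were measured. Of these, 48 had a higher signal in *Sox21* KO by any amount and 21 a lower one, so that 69.6% were higher against 52.4% of all 13805 measured genes. Their median log2 ratio was 0.09. The share depends on the scaling, since scaling by the median of each array put 76.8% of the list genes and 69.3% of all measured genes higher. In all, 3 of the 69 genes were at least 1.5-fold higher, a distance reached by 3.2% of measured genes, and 1 was at least 1.5-fold lower, a distance reached by 2.99%. None was 2-fold apart, although *Tnfrsf11b* passed that mark with scaling by the median.

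Among 22 other receptors of the TNF family, 16 were measured. Of these, 11 were higher and 5 lower, and their log2 ratios had a median of 0.11. *Tnfrsf11b*, which encodes the secreted decoy receptor osteoprotegerin, had normalized signals of 0.573 in wild-type and 1.09 in *Sox21* KO, a log2 ratio of 0.92, which ran from 0.67 with normexp to 1.02 with scaling by the median. *Tnfrsf18*, a co-stimulatory receptor of T cells, had 0.262 and 0.409, a log2 ratio of 0.65, which was 0.31 with background removed by the normexp method. *Relt* had 4.28 and 2.75, a log2 ratio of -0.64, which ran from -0.65 to -0.54 over the alternatives and was under 1.5-fold in 3 of them. *Tnfrsf13c*, a receptor of B cells, was measured on the wild-type array alone, at 0.106, and its signal on the KO array was 0.0419, below the mark, so that the smallest difference these values allow is just under 1.5-fold. These 4 are the receptors that were 1.5-fold apart or seen on 1 array only, and *Edar* and *Eda2r* share their place below the mark on both arrays with 5 of the 22.

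Downstream of the receptors, no measured gene of the adaptor, TRAF, NF-κB module and feedback lists was 1.5-fold apart. The 5 adaptors with or around death domains were all measured, 2 higher and 3 lower, with a median log2 ratio of -0.03 and a range of -0.15 to 0.19. The brightest were *Tradd*, an adaptor of TNF receptor signaling, at 6.50 and 5.91 (log2 ratio -0.14), and *Myd88*, the adaptor of Toll-like receptors, at 2.15 and 2.43 (0.18). The other 6 TRAF genes were all measured, 5 higher and 1 lower, with a median of 0.06 and a range of -0.05 to 0.47. Of these, *Traf7* had normalized signals of 25.1 and 26.4 (log2 ratio 0.07) and *Traf2* had 7.57 and 7.64 (0.01). The module of kinases, inhibitors and NF-κB subunits had 14 of 15 genes measured, 8 higher and 6 lower, with a median of 0.04 and a range of -0.40 to 0.26. In it *Rela*, which encodes the NF-κB subunit p65, had 25.4 and 30.3 (log2 ratio 0.26), *Tab2*, a partner of the kinase Tak1, had 11.9 and 10.9 (-0.12), and *Rel* was not well above background on either. The 7 genes that feed back on NF-κB were all measured, 5 higher and 2 lower, with a median of 0.12 and a range of -0.51 to 0.26. Of these, *Tnip1* had 11.4 on both arrays (log2 ratio 0.00) and the deubiquitinase gene *Otulin* had 3.66 and 3.98 (0.12). At their brightest probes, the 32 measured genes in these 4 lists ran from -0.51 at *Nfkbid* to 0.47 at *Traf1*. For some genes another measured probe had the opposite sign. Among them were *Map3k14* (-0.40 and 0.34), *Nfkb1* (0.16 and -0.43) and *Nfkbib* (0.01 and, at the lowest, -0.54).

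Inputs and known targets of the pathway were described in the same way. The 5 genes of the Wnt, activin and furin inputs were all measured and all higher, with log2 ratios of 0.02 to 0.20 and a median of 0.13. *Ctnnb1*, which encodes β-catenin, had normalized signals of 33.3 and 36.6 (log2 ratio 0.13), and *Furin*, whose product releases ectodysplasin, had 16.6 and 18.5 (0.15). Of 20 genes known as targets of ectodysplasin or NF-κB in ectodermal placodes, 16 were measured, 12 higher and 4 lower, with a median log2 ratio of 0.17. *Ccn2*, which encodes connective tissue growth factor, had 8.51 and 13.1, a log2 ratio of 0.62, and was the only target 1.5-fold apart. The log2 ratios of the 16 ranged from -0.36 to 0.62. The placode genes *Dkk4* and *Fgf20* and the genes *Cxcl10* and *Lta* have probes but were not well above background on either array.

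**Figure D4:**
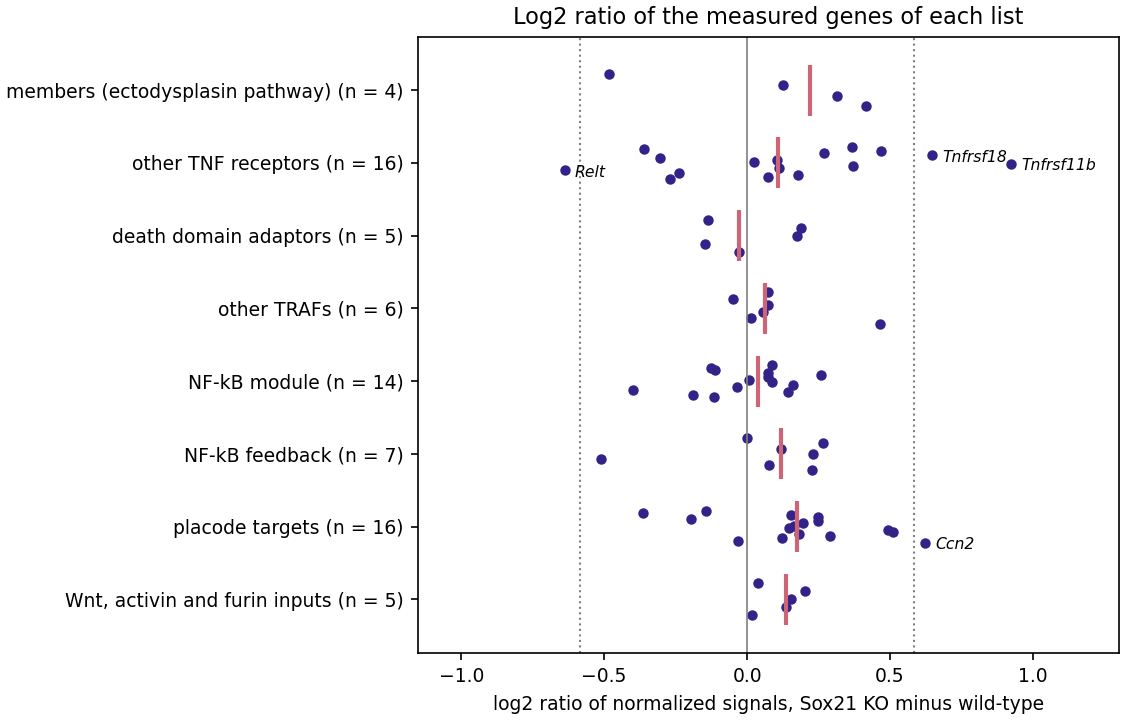
Log2 ratio (*Sox21* KO minus wild-type) of each measured gene of the pathway and of 7 lists around it, 1 point per gene at its brightest measured probe, with the list median as a vertical bar and dotted lines at a 1.5-fold difference. *Tnfrsf11b*, *Tnfrsf18* and *Ccn2* lie beyond the right line and *Relt* beyond the left one, while the list medians lie between -0.03 and 0.22.

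The promoters of the 7 genes were searched for the 10-base κB consensus, the sequence that NF-κB binds, on both strands from 250 bases before to 50 bases after the annotated start in RefSeq (GRCm38.p6). All 7 genes had a window, and *Nfkbia* was the 1 gene with a match. Of all 27025 genes with a window, 1388 (5.14%) had a match. Among the genes of each list that have a window in the table used, 5 of 6 feedback genes, 4 of 11 genes of the NF-κB module, 4 of 10 placode targets, 2 of 19 other receptors and 1 of 6 other TRAF genes had a match, and 0 of 4 adaptors and 0 of 5 inputs did. The 250 bases before the start of *Nfkbia* (chr12:55492648-55492897, minus strand) are shown as the 1 member promoter with this sequence, with the match in capitals, which begins at position -29 from the start.
*Nfkbia* promoter: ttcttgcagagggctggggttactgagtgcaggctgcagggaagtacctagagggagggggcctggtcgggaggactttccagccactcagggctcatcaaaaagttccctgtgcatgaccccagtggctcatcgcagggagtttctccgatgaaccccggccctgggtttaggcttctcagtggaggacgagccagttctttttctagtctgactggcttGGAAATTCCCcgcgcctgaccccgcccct
A match is a stretch of letters and not a measured site of binding, and its absence from a window says only that these letters are not in it.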

How the data were processed

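RNA of 1 wild-type and 1 *Sox21* KO incisor sample was measured on Agilent one-color arrays. Per the deposited scanner files, Feature Extraction 10.7.3.1 removed background and wrote a processed intensity, beside the raw mean intensity and flags of each spot. The authors also deposited a table of linear ratios, the processed signals over a divisor of 268 for wild-type and 276 for *Sox21* KO, which rounds to the same number as the 75th percentile over all 62976 spots of each array. The divisor was constant over the spots to a relative 2.69e-06, and the ratios were not used further. Their median was 0.0756 and 0.0707.

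For the values given here, processed signals were scaled to that percentile, 267 spots marked as outliers were left out, and the log2 ratio was taken per probe. Of 59305 spots other than controls, the scanner marked 49.7% and 50.4% as well above background, and 0 spots were saturated. The number of arrays limits the precision. A probe on 1 array alone was given a bound, namely its normalized signal there over the higher of the lowest signal well above background and its own signal on the other array. A gene took its brightest measured probe. Gene symbols came from RefSeq (GRCm38.p6) by accession for 26298 probes, by symbol for 2044 and by older symbol for 355. The other 26982 had no reference symbol and were left out of the gene counts, but were kept in the probe shares. Every probe of the 7 members is named. From each of the 7 lists around the pathway, the genes 1.5-fold apart or on 1 array alone are named, or else the 2 brightest. Genes of the marker lists are named only in part. Members and lists were chosen with earlier results of these arrays known. No test was run. Steps were run on simulated data with changes larger than those of any member, called at 2-fold, which did not test the 1.5-fold rule. Computations used R 4.3.3 with limma 3.58.1, and Python 3.11.15 with pandas 2.3.3 and numpy 2.4.6.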

Additional observations from a re-analysis of the deposited data

How the results depend on the processing

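No paired analysis was possible because each genotype has 1 array, and leaving out an array was not possible either. The alternatives were the 75th percentile over spots other than controls, the median of the array, quantile normalization, normexp background correction (offset 50), no background correction, the mean over probes, no filter on dim probes and outlier spots kept. All 6 measured pathway probes kept their direction under the 5 that change the scaling or the background correction, the only ones that could move a measured probe, with *Tnfrsf19* probe 1 between 0.11 and 0.22, probe 2 between 0.09 and 0.20, *Traf6* probe 1 between -0.50 and -0.36 and probe 2 between 0.26 and 0.50. Scaling by the median moved the median of all measured genes from 0.01 to 0.11, and with it the median over the members from 0.22 to 0.32, relative to which the members lie as before. The list genes at least 1.5-fold higher then numbered 5 in place of 3 and those at least 1.5-fold lower 0 in place of 1, and among all measured genes these counts went from 442 and 413 to 672 and 279. Normexp and no background correction also left 2 list genes 1.5-fold higher and 0 lower (172 and 213, and 222 and 247, of all measured genes), as *Relt* then had -0.56 and -0.57, against -0.64 as reported and -0.54 with the median. Without the filter, 2 member probes and 1 member (*Edaradd*) were 2-fold apart, 3 member probes and 1 member were 1.5-fold apart, the median over the members was 0.12, and 5 list genes were 1.5-fold higher and 4 lower, while 1305 and 1463 of all 21244 genes were, with a median of -0.06. Those 3 probes, the second *Eda* probe and both of *Edaradd*, rest on signals that are not well above background. Over the alternatives, the median of the NF-κB module ran from -0.03 to 0.14 and that of the adaptors from -0.07 to 0.07. Neither median kept its sign.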
